A study of Xenopus laevis with 6 samples.

Results

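Neurotransmitter receptors were compared between Xenobots, which lack a nervous system, and age-matched *Xenopus laevis* embryos. The receptors were the genes whose symbol marks an ionotropic or metabotropic glutamate, GABA, glycine, nicotinic, muscarinic, serotonin, dopamine, adrenergic or histamine receptor. This rule used names alone and took 164 of the 42638 genes in the count table, under 109 symbols. It also took both copies of a gene whose product binds a glutamate receptor and is not itself a receptor.

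A Xenobot is a motile construct that formed by healing from ectoderm, the animal cap, cut from a stage 9 embryo. The Xenobots were wild type and untreated, were raised in 0.75X MMR, a Ringer's solution, at 14 °C, and were collected on day 7. The embryos were intact wild type siblings, also untreated and held at 14 °C for 7 days to stage 35, but in 0.1X MMR. Medium and group therefore changed together and cannot be told apart. Each library was 1 pool, of 50 Xenobots or of 10 embryos, and n = 3 pools per group throughout. Library totals were 13597538 to 20325075 counts in Xenobots and 17533207 to 22225123 counts in embryos.

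Receptors for neurotransmitters are of 2 kinds. Ligand-gated ion channels open on binding and carry fast signals at synapses and at the junction of nerve and muscle. G protein-coupled receptors act more slowly, through Gs, Gi or Gq proteins, and many of them are also used outside the nervous system. In the skin of *Xenopus* tadpoles, serotonin released by small secretory cells acts on the beating of multiciliated cells through a receptor of the 5-HT3 type. *Xenopus laevis* is allotetraploid, so that most genes have an L and an S copy (homeologs), and reads of similar copies may have been split between them by the counting. Levels are given as CPM, that is counts scaled to a common library size with TMM factors, which are not corrected for gene length and were compared between groups only.

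The check of the labels came first. Among 33 neuron markers, 30 were called lower in Xenobots at the thresholds given below, where 20.5% of all tested genes were. Of these 30, 21 passed the filter on low values through embryo libraries alone. Another 2 were lower by the adjusted p alone, and elavl3.L, nefm.L, snap25.S and sncb.L had 0 counts in all 3 Xenobot pools. syt1.L, a synaptotagmin, was the exception, higher by the adjusted p alone, at 73.5, 81.1 and 78.9 CPM in Xenobots, against 20.4, 21.6 and 22.6 CPM in embryos. All 33 neuron markers summed to 10.1 to 11.4% of the embryo mean in the Xenobot pools. Without syt1.L, left out after its values were seen, the sum was 2.33 to 3.36% of the embryo mean. Skeletal muscle markers summed to 0.310 to 2.91% of the embryo mean, while markers of multiciliated cells summed to 432 to 496% and those of the epidermis in general to 283 to 385%. In pooled tissue, fewer cells of a type and less RNA per cell cannot be told apart.

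Most receptors were far lower in Xenobots, and few were kept. A gene was called changed where the adjusted p was under 0.05 and the log2 fold change was above 2 or below -2. Of the 94 receptors that passed the filter on low values, 1 was called higher and 80 were called lower, beside background rates of 5.75% called higher and 20.5% called lower over the 26752 tested genes. At an adjusted p under 0.05 with any fold change, 4 receptors were higher and 86 lower, where the rates over tested genes were 29.6% and 36.2%. The filter itself favoured receptors of the embryo: 75 of the 94 passed through embryo libraries alone and 0 through Xenobot libraries alone, so their count is not evidence of a direction. Over all 164 genes with no filter, 114 had every Xenobot pool below every embryo pool, 5 had every Xenobot pool above, and 45 overlapped. Among the tested receptors, 85 had all Xenobot pools below, where 38.9% of tested genes did, and 4 had all of them above, where 32.8% did. Over all 42638 genes the count without a filter gave 29.3% below and 22.4% above. The median log2 fold change of the tested receptors was -4.42, or -4.30 with genes of 3 counts or fewer set to that floor, beside -0.07 over all tested genes. The filter shaped this median too. With no filter the median was -3.28 over the 154 receptors with any count, beside -0.11 over 36826 genes.

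The 70 receptors that did not pass the filter reached at most 0.756 CPM in any Xenobot pool and 1.59 CPM in any embryo pool. Of these, 25 had 3 counts or fewer in every pool, among them 16 of the 17 hrh4 genes, which encode copies of the H4 histamine receptor. Altogether 55 receptors had 0 counts in every Xenobot pool, 10 of which also had 0 counts in every embryo pool.

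**Figure D1:**
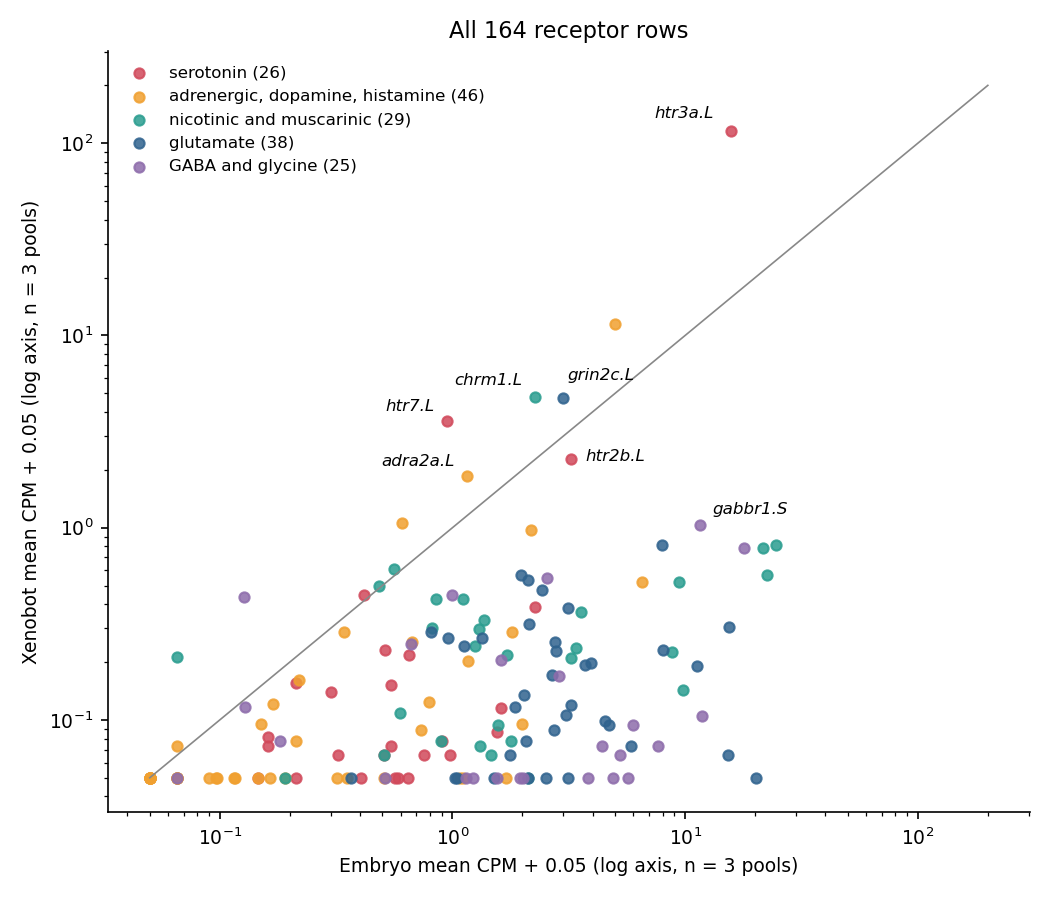
Mean Xenobot level against mean embryo level of all 164 receptor genes, in CPM plus 0.05 on log axes, coloured by transmitter (number of genes in the key). The line marks equal levels. Most points lie below it, and htr3a.L lies farthest above it at 116 CPM in Xenobots and 15.7 CPM in embryos.

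The summed receptor level was 173, 174 and 149 CPM in Xenobots, against 471, 453 and 395 CPM in embryos. One gene, htr3a.L, made up most of the Xenobot sum. Without it, the receptors summed to 54.0, 44.9 and 49.9 CPM in Xenobots and 457, 438 and 376 CPM in embryos, so that the Xenobot mean was 11.7% of the embryo mean.

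Levels exceeded 0.6 CPM in all 3 Xenobot pools for 9 receptors, which are called kept here (9 of 94 tested receptors, where 79.1% of all tested genes were kept). Those described here are htr3a.L, htr7.L and htr2b.L for serotonin, adra2a.L for adrenaline and noradrenaline, chrm1.L for acetylcholine, grin2c.L for glutamate and gabbr1.S for GABA. Of these 7, 5 are G protein-coupled, and htr3a.L and grin2c.L are channel subunits. Kept receptors summed to 152, 155 and 131 CPM in Xenobots and 43.7, 44.6 and 45.3 CPM in embryos. Of these sums, htr3a.L alone held 119, 129 and 99.1 CPM in Xenobots and 13.6, 14.7 and 18.6 CPM in embryos. The receptors that were neither kept nor of the muscle nicotinic type summed to 18.0, 15.3 and 16.4 CPM in Xenobots, against 341, 319 and 236 CPM in embryos. Kept genes were chosen by their Xenobot level, so the contrast of the kept and other sums is not evidence of a direction.

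**Figure D2:**
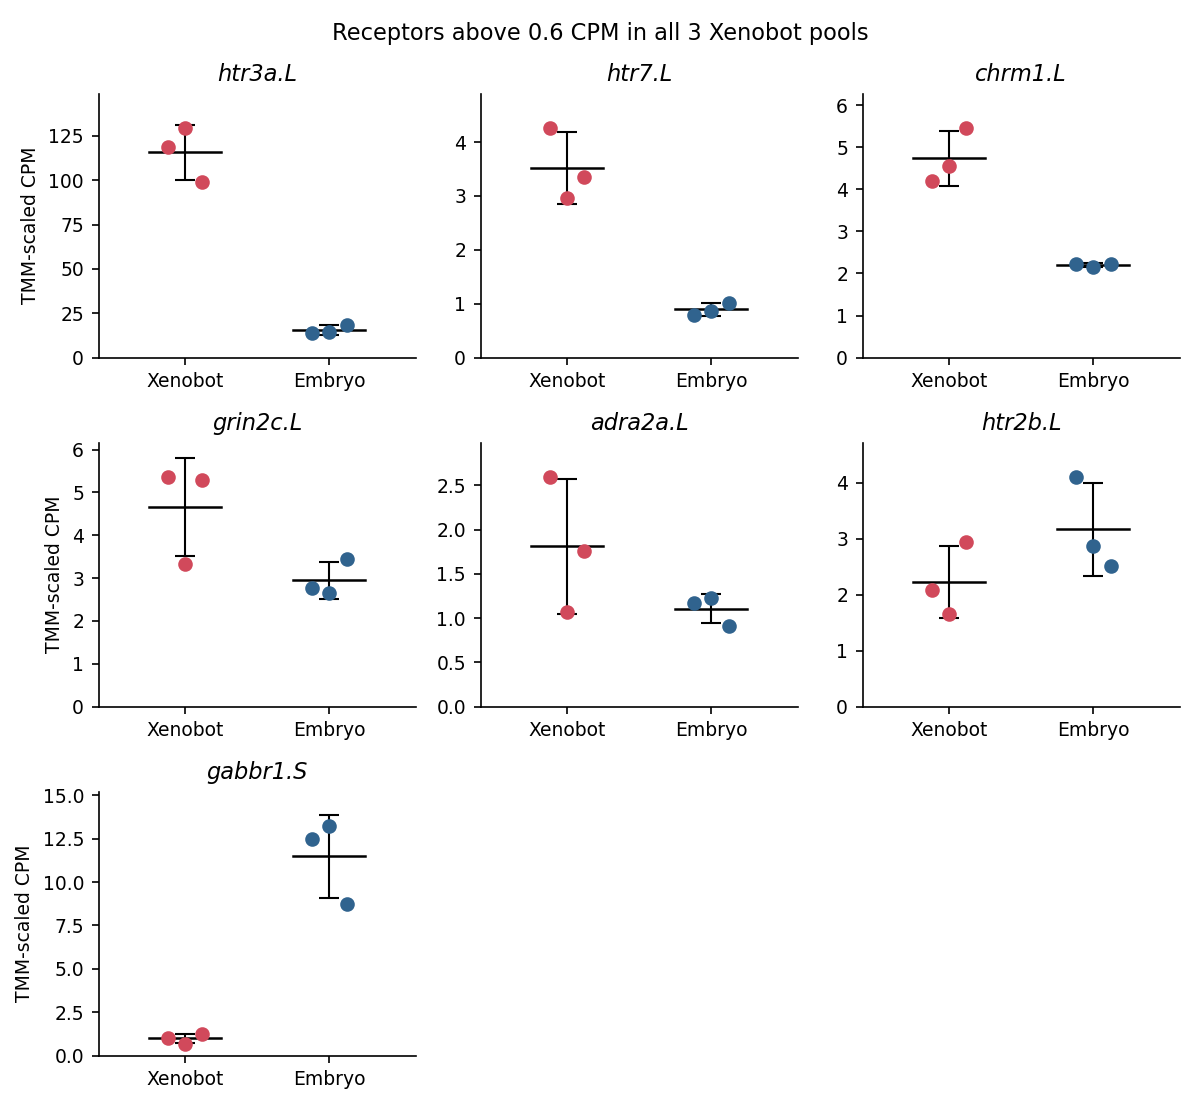
CPM of 7 kept receptors in each pool, with 1 point per pool, bars at the mean and error bars of 1 SD (n = 3), ordered by log2 fold change. Xenobot pools lie above all embryo pools for htr3a.L, htr7.L and chrm1.L, and below all of them for gabbr1.S.

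Serotonin receptors held the only receptor called higher. htr3a.L encodes the A subunit of the 5-HT3 receptor, the one ligand-gated channel among serotonin receptors, and lies on chromosome 4L from 44638862 to 44653770 (assembly 10.1). Its level was 119, 129 and 99.1 CPM in Xenobots, against 13.6, 14.7 and 18.6 CPM in embryos. Every Xenobot pool was several times above every embryo pool. The means of 116 ± 15.4 CPM in Xenobots and 15.7 ± 2.61 CPM in embryos (SD, n = 3) differ 7.39-fold, with a log2 fold change of 2.89 ± 0.15 (SE) and an adjusted p of 4.88e-07 by limma-voom. Under all alternatives the log2 fold change of htr3a.L stayed between 2.74 and 3.19. Markers of multiciliated cells, which carry 5-HT3 type receptors in tadpole skin, were also higher: 9 of 14 tested were called higher and 1 lower, and they summed to 1480, 1515 and 1321 CPM in Xenobots, against 287, 321 and 310 CPM in embryos. Over all tested genes, 5.75% were called higher and 20.5% lower, the background for each marker list given here. Markers of other epidermal cells were higher in sum too. Goblet cell markers, 3 of 10 called higher and 3 lower, summed to 5195, 5483 and 4037 CPM in Xenobots, against 736, 826 and 1130.4 CPM in embryos. Ionocyte markers, 4 of 14 called higher and 1 lower, summed to 806, 799 and 667 CPM in Xenobots, against 298, 316 and 294 CPM in embryos. Markers of small secretory cells had 1 of 10 tested called higher and 4 called lower. They summed to 68.8, 78.8 and 75.0 CPM in Xenobots, against 129, 115 and 115 CPM in embryos. The part of these cell types in the level of htr3a.L was not tested. The other 5-HT3 subunits were close to the limit of detection: htr3b.L had 0 counts in Xenobots, against 0.468, 0.811 and 0.326 CPM in embryos, and htr3c.L stayed at or under 0.233 CPM in every pool.

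Among G protein-coupled serotonin receptors, htr7.L was the one that was higher. It encodes the Gs-coupled 5-HT7 receptor and lies on chromosome 7L from 33083769 to 33152696. Its level was 4.26, 2.96 and 3.36 CPM in Xenobots, against 0.795, 0.866 and 1.02 CPM in embryos, with no overlap. The log2 fold change of 1.91 ± 0.29 (SE, adjusted p = 0.00025 by limma-voom) fell just short of the fold threshold. Without Xenobot pool 2, without embryo pool 3 or with the authors' adjusted values it passed, which raised the count of receptors called higher to 2. Its homeolog htr7.S had 0 counts in Xenobots and 0.0935 to 0.233 CPM in embryos.

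htr2b.L, which encodes the Gq-coupled 5-HT2B receptor, was at 2.09, 1.66 and 2.94 CPM in Xenobots, against 4.11, 2.88 and 2.52 CPM in embryos. The pools overlapped, and the log2 fold change of -0.58 ± 0.30 (SE) did not pass the test (adjusted p = 0.11 by limma-voom). With the authors' adjusted values, from which surrogate variables had been removed, it was 0.24 (adjusted p = 0.303 by limma). htr4.L, which encodes another Gs-coupled receptor, fell to 0.0687, 0.697 and 0.252 CPM in Xenobots, against 2.40, 2.39 and 1.88 CPM in embryos. Its log2 fold change of -2.92 was -1.98 with the authors' adjusted values, which ended the call. htr7l.L and htr7l.S, named as like htr7, also fell, to at most 0.126 CPM in a Xenobot pool, against 1.06 to 1.95 CPM in the embryo pools. Of the 23 genes of this class 7 were tested and 5 were called lower, where 20.5% of all tested genes were. Of these 5, 4 passed the filter through embryo libraries alone. With no filter, 18 of the 23 had all Xenobot pools below all embryo pools, where 29.3% of all 42638 genes did. The class summed to 7.52, 6.91 and 7.47 CPM in Xenobots, against 19.6, 17.2 and 14.8 CPM in embryos.

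**Figure D3:**
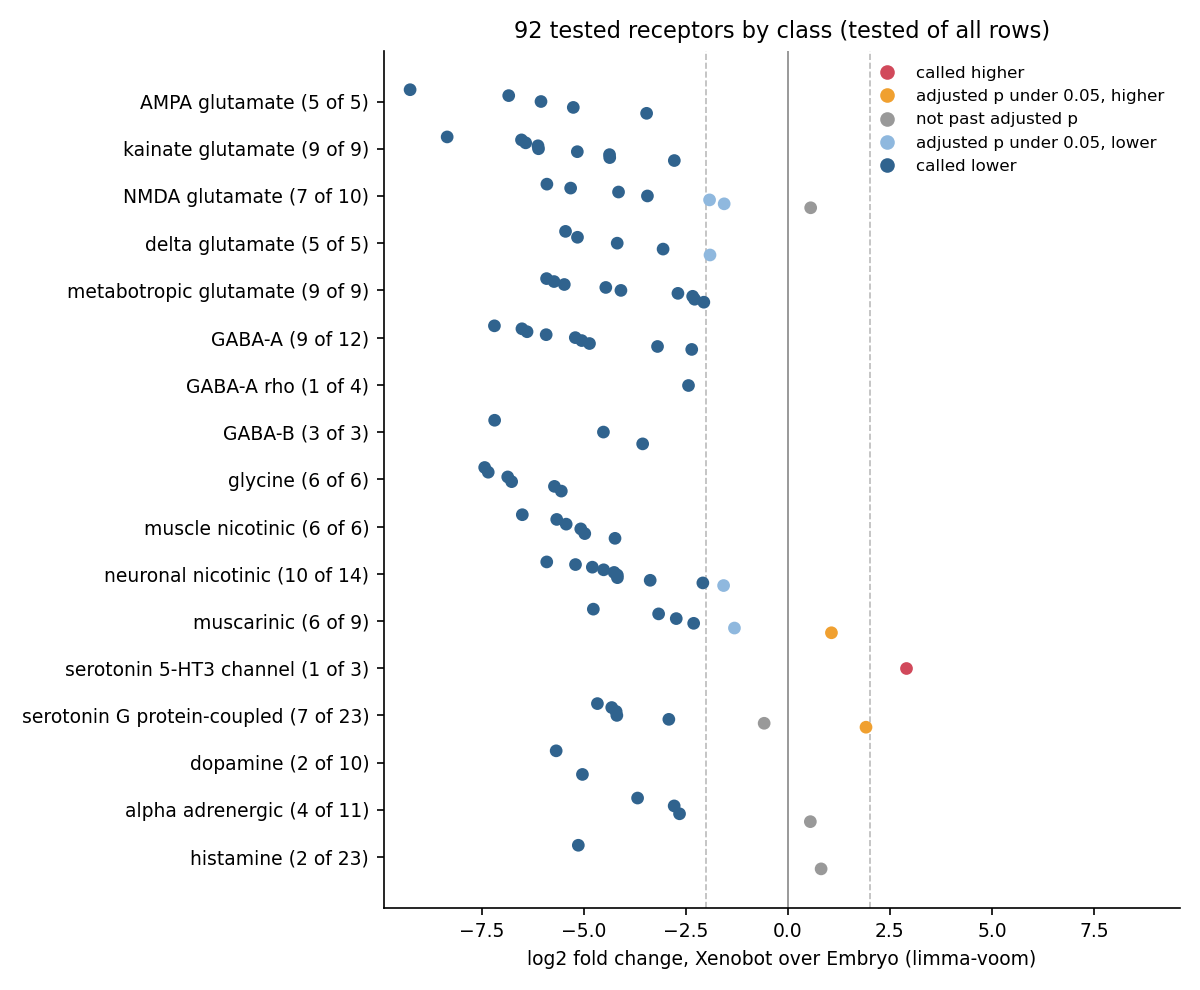
Log2 fold change of Xenobots over embryos from limma-voom for 92 tested receptors, 1 point per gene, by receptor class with the number tested of all genes in the class. Dashed lines mark the fold threshold of 2 on the log2 scale. Genes of few counts in Xenobots have fitted values that depend on the offset used, so the size of their fold is uncertain. Of the 94 tested receptors, 75 passed the filter through embryo libraries alone. The number of points left of the threshold is therefore not evidence of a direction.

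Adrenergic receptors bind adrenaline and noradrenaline, and the alpha types are given here. adra2a.L, which encodes the Gi-coupled alpha-2A receptor, was at 2.59, 1.07 and 1.76 CPM in Xenobots, against 1.18, 1.22 and 0.915 CPM in embryos. The pools overlapped, through Xenobot pool 2. The log2 fold change was 0.55 ± 0.38 (SE, adjusted p = 0.232 by limma-voom), and without that pool it was 0.98 (adjusted p = 0.027). The Gq-coupled alpha-1 receptors were lower. adra1d.L fell to 0.344, 0.564 and 0.504 CPM in Xenobots, against 5.19, 6.44 and 7.77 CPM in embryos. Its copy adra1d.S fell to 0.0839 to 0.423 CPM in Xenobots, against 1.31 to 2.37 CPM in embryos, but with the authors' adjusted values its log2 fold change was -0.98 and the call was lost (adjusted p = 0.0957 by limma). adra1a.L fell to 0.137, 0.235 and 0.0839 CPM in Xenobots, against 1.22, 0.920 and 1.21 CPM in embryos, and adra1a.S, which was not tested, had 0 counts in Xenobots and 0.419 to 0.541 CPM in embryos. With the authors' adjusted values the log2 fold change of adra1a.L was -1.82 (adjusted p = 0.00152 by limma), inside the fold threshold.

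Muscarinic receptors are the G protein-coupled receptors of acetylcholine. chrm1.L encodes the Gq-coupled M1 receptor and lies on chromosome 4L from 23615913 to 23701033. It was at 4.19, 4.56 and 5.46 CPM in Xenobots, against 2.24, 2.15 and 2.23 CPM in embryos. No pools overlapped, and the log2 fold change was 1.07 ± 0.20 (SE, adjusted p = 0.00105 by limma-voom). Its copy chrm1.S had 0 counts in Xenobots and at most 0.227 CPM in embryos. The Gi-coupled M2 receptor was lower in both copies. chrm2.S fell to 0.275, 0.141 and 0.0839 CPM in Xenobots, against 2.06, 1.57 and 1.35 CPM in embryos, and chrm2.L was represented by 1 count in Xenobots, an embryo to Xenobot ratio of 60.7 with a 95% exact counting interval of 10.6 to 2427. chrm5.L fell to 0.141 to 0.344 CPM in Xenobots, against 1.16 to 1.33 CPM in embryos. The fold change of chrm5.L fell inside the threshold when Xenobot pool 2 was left out (log2 -1.92, adjusted p = 0.00326 by limma-voom). Its copy chrm5.S was not tested.

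**Figure D4:**
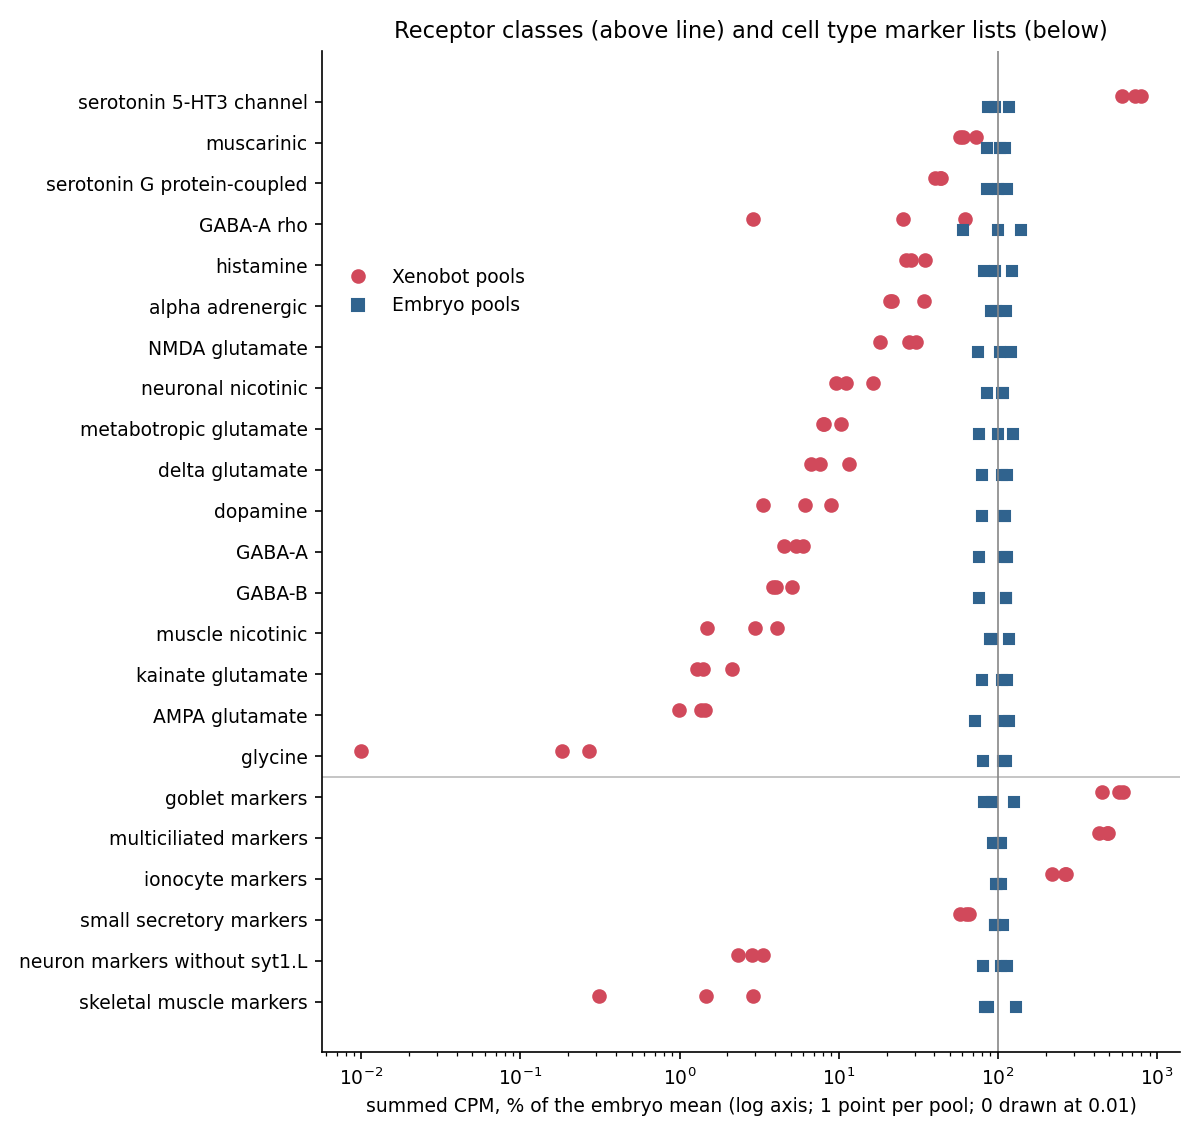
Summed CPM of 17 of the 18 receptor classes and of 6 cell type marker lists in each pool, as a percent of the embryo mean on a log axis, with 1 point per pool. The neuron list is drawn without syt1.L, its 1 member that was higher in Xenobots. The glycine sum of Xenobot pool 3 was 0 and is drawn at 0.01. Xenobot pools lie above the embryo pools for the 5-HT3 class, overlap them for GABA-A rho and lie below them for the 15 remaining classes drawn; 1 class is not drawn, so 5-HT3 is not shown to be the only class that was higher.

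The ionotropic glutamate receptors, which carry most fast excitation in the brain, were nearly absent from Xenobots apart from 1 NMDA subunit. All 5 AMPA genes and all 9 kainate genes were called lower, where 20.5% of all tested genes were. All of them passed the filter through embryo libraries alone, so these counts are not evidence of a direction. With no filter, all 5 and all 9 had every Xenobot pool below every embryo pool, where 29.3% of all 42638 genes did. AMPA genes summed to 0.756, 0.517 and 0.713 CPM in Xenobots and 61.3, 57.4 and 37.5 CPM in embryos. gria3.L had 0 counts in Xenobots, against 23.6, 21.7 and 15.1 CPM in embryos, and was thus at least 319-fold lower, counted against a floor of 3 counts over the group. gria2.S fell to 0.206, 0.0939 and 0.461 CPM in Xenobots, against 16.8, 17.6 and 11.8 CPM in embryos, and gria4.L to 0.0839 to 0.275 CPM, against 5.76 to 9.47 CPM. gria3.S, unlike its copy, was detected in every Xenobot pool, at 0.206, 0.235 and 0.168 CPM, against 2.94, 3.41 and 1.79 CPM in embryos. Its log2 fold change of -3.46 was -1.995 with the authors' adjusted values, which ended the call.

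Among kainate genes, grik5-like.1.L was represented by 1 count in Xenobots, an embryo to Xenobot ratio of 727 (95% exact interval 130 to 28734). Its copy grik5-like.1.S fell to 0.137, 0.282 and 0 CPM in Xenobots, against 12.5, 10.5 and 10.7 CPM in embryos. grik2.S and grik2.L fell to at most 0.168 CPM in a Xenobot pool, against 2.54 to 5.51 CPM in the embryo pools. The class summed to 0.619, 1.03 and 0.672 CPM in Xenobots, against 54.7, 50.9 and 38.5 CPM in embryos.

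NMDA receptors need the GluN1 subunit, encoded by grin1, together with other subunits such as GluN2C, encoded by grin2c. grin2c.L was at 5.36, 3.34 and 5.29 CPM in Xenobots, against 2.76, 2.65 and 3.44 CPM in embryos. Xenobot pool 2 lay within the embryo range, and the log2 fold change of 0.56 ± 0.25 (SE) did not pass the test (adjusted p = 0.0728 by limma-voom). It passed without Xenobot pool 2 (0.85, adjusted p = 0.00686) and in edgeR's quasi-likelihood test (0.64, adjusted p = 0.0408). With the authors' adjusted values it was 1.16 (adjusted p = 0.000195 by limma). grin1.L fell to 0.550, 0.470 and 1.26 CPM in Xenobots, against 10.1, 8.77 and 4.80 CPM in embryos, with a log2 fold change of -3.44 ± 0.56 (SE, adjusted p = 0.000395 by limma-voom). grin2a.L and grin2b.L were each represented by about 2 counts in Xenobots, with embryo to Xenobot ratios of 64.2 (95% exact interval 17.5 to 534) and 106 (29.1 to 881). grin2c.S had 0 counts in Xenobots and at most 0.487 CPM in embryos.

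The delta glutamate class summed to 8.68% of the embryo mean. grid1.L fell to 0.344, 0.188 and 0 CPM in Xenobots, against 2.71, 3.03 and 2.47 CPM in embryos, and its copy grid1.S to 1 count in all. Leaving out the 2 genes of the binding protein gave 79 receptors called lower.

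Metabotropic glutamate receptors are G protein-coupled, and all 9 of their genes were called lower, where 20.5% of all tested genes were. Of the 9, 8 passed the filter through embryo libraries alone, so this count is not evidence of a direction. With no filter, all 9 had every Xenobot pool below every embryo pool, where 29.3% of all 42638 genes did. The metabotropic receptors shown here couple to Gi. grm3.S was represented by 2 counts in Xenobots, against 3.80, 3.26 and 2.02 CPM in embryos, and its copy grm3.L by 0 counts, at least 33.1-fold lower. grm7.L fell to 0.137, 0.141 and 0.0839 CPM in Xenobots, against 2.92, 2.87 and 2.08 CPM in embryos, and grm7.S to 0 counts, at least 23.5-fold lower. grm8.L fell to 0.550, 0.467 and 0.252 CPM in Xenobots, against 3.69, 1.84 and 1.58 CPM in embryos. Without embryo pool 1 the log2 fold change of grm8.L was -1.95 and no longer past the fold threshold. grm8.S fell to 0 to 0.206 CPM in Xenobots, against 1.77 to 2.11 CPM in embryos.

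The receptors of inhibitory transmitters were called lower in Xenobots in all tested genes, where 20.5% of all tested genes were called lower. All 6 glycine genes, the 9 tested GABA-A genes and 1 of the 3 GABA-B genes passed the filter through embryo libraries alone. The count is therefore not evidence of a direction. With no filter, all 6 glycine and all 3 GABA-B genes had every Xenobot pool below every embryo pool, where 29.3% of all 42638 genes did. GABA-A and glycine receptors are chloride channels that carry fast inhibition. Glycine receptors had the lowest class sum relative to embryos, 0.151% of the embryo mean. Their 6 genes summed to 0.0687, 0.0470 and 0 CPM in Xenobots, against 28.6, 27.5 and 20.6 CPM in embryos. glrb.L, the beta subunit that ties the channel to its anchor gephyrin, had 0 counts in Xenobots and 6.83, 5.68 and 4.42 CPM in embryos, at least 89.7-fold lower. glrb.S and glra3.S also had 0 counts in Xenobots, at least 29.8-fold and 60.1-fold lower. glra3.L and glra2.L had 1 count each in Xenobots, with embryo to Xenobot ratios of 360 (95% exact interval 64.3 to 14259) and 246 (43.8 to 9742).

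GABA-A genes summed to 5.28% of the embryo mean, and the 9 tested were all called lower. These 9 passed the filter through embryo libraries alone, so their count is not evidence of a direction. Over all 12 GABA-A genes with no filter, 9 had every Xenobot pool below every embryo pool and 1 had every Xenobot pool above. These shares were 29.3% and 22.4% over all 42638 genes. gabra2.S had 0 counts in Xenobots and 5.42, 5.70 and 3.44 CPM in embryos, at least 76.6-fold lower. gabra2.L fell to 0.619, 0.282 and 0.588 CPM in Xenobots, against 3.32, 2.15 and 2.00 CPM in embryos, and without Xenobot pool 2 its log2 fold change was -1.94.

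One GABA-A gene that did not pass the filter had the opposite pattern and was picked out after its values were seen. gabrd.L, for the delta subunit, was at 0.344, 0.564 and 0.252 CPM in Xenobots, against 0.0935, 0 and 0.140 CPM in embryos. These are 20 counts over the Xenobot pools and 5 over the embryo pools, and with no filter on low values gabrd.L was also called higher. The rho type, a GABA channel best known from the retina, had 1 gene tested. gabrr2.S was at 0.344, 0 and 0.839 CPM in Xenobots, against 1.26, 0.703 and 0.884 CPM in embryos, and was called lower with overlapping pools and an adjusted p of 0.0499. The call was lost when Xenobot pool 2, the pool at 0, was left out (log2 -0.76, adjusted p = 0.214 by limma-voom). gabrr2.L was not tested.

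GABA-B receptors are obligate pairs of the products of gabbr1, which binds GABA, and gabbr2, which couples to Gi. gabbr1.S was kept at a low level, 1.01, 0.692 and 1.26 CPM in Xenobots, against 12.5, 13.2 and 8.76 CPM in embryos, with a log2 fold change of -3.56 ± 0.38 (SE, adjusted p = 2.1e-05 by limma-voom). gabbr1.L fell to 0.566, 0.811 and 0.839 CPM in Xenobots, against 21.0, 19.4 and 13.2 CPM in embryos. gabbr2.S fell to 0.0687, 0.0939 and 0 CPM in Xenobots, against 12.7, 13.5 and 9.21 CPM in embryos. Its 3 counts in Xenobots gave an embryo to Xenobot ratio of 186 (95% exact interval 63.5 to 905).

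Nicotinic receptors are the acetylcholine-gated channels. All 6 genes of the muscle type, which sits opposite the motor nerve ending, were called lower, where 20.5% of all tested genes were. Of these 6, 3 passed the filter through embryo libraries alone. chrna1.L, for the alpha subunit that binds acetylcholine, was at 1.24, 0.799 and 0.168 CPM in Xenobots, against 18.3, 20.7 and 25.7 CPM in embryos. chrna1.2.L, a neighbouring alpha gene, was at 0.481, 1.22 and 0.588 CPM in Xenobots, against 22.2, 21.6 and 29.4 CPM in embryos. chrnd.L, for the delta subunit, was at 0.481, 0.986 and 0.0839 CPM in Xenobots, against 19.7, 21.4 and 26.4 CPM in embryos. All 6 genes had every Xenobot pool below every embryo pool, where 38.9% of all tested genes did. The class summed to 3.00, 4.10 and 1.48% of the embryo mean in Xenobot pools 1, 2 and 3, and 31 skeletal muscle marker genes summed to 1.46, 2.91 and 0.310% in the same pools. Pool 2 had the higher and pool 3 the lower end of both sums, and the part of residual muscle RNA in the receptor counts was not tested.

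The nicotinic receptors of neurons summed to 12.4% of the embryo mean, and 9 of the 10 tested were called lower. All 10 passed the filter through embryo libraries alone, so this count is not evidence of a direction. Over all 14 genes with no filter, 11 had every Xenobot pool below every embryo pool and 3 overlapped. The share with every Xenobot pool below was 29.3% over all 42638 genes. chrna5.L fell to 0.412, 0.282 and 0.252 CPM in Xenobots, against 3.23, 3.52 and 3.81 CPM in embryos, and chrna5.S to 2 counts in all. chrnb2.S, for the beta-2 subunit of the main brain type, fell to 0.344, 0.0470 and 0.168 CPM in Xenobots, against 3.93, 3.90 and 2.23 CPM in embryos. chrna2.L fell to 0.0939 to 0.252 CPM in Xenobots, against 2.96 to 3.43 CPM in embryos. chrna2.S fell to 0.344, 0.329 and 0.168 CPM in Xenobots, against 1.37, 1.53 and 1.03 CPM in embryos, and its log2 fold change was -1.85 without Xenobot pool 3 and -1.97 without embryo pool 2.

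Dopamine and histamine receptors had few counts in both groups. drd2.L and drd2.S, for the Gi-coupled D2 receptor, had 0 counts in Xenobots, against 1.04, 1.30 and 0.837 CPM and 1.81, 1.73 and 1.40 CPM in embryos. They were at least 16.7-fold and 26.1-fold lower. The other 8 dopamine receptor genes were not tested. Of 23 histamine receptor genes, 2 were tested. hrh2.S, for the Gs-coupled H2 receptor, fell to 2 counts in Xenobots, against 2.48, 1.79 and 1.58 CPM in embryos, and hrh2.L, not tested, had 0 counts in Xenobots, at least 16.3-fold lower. hrh4.a1.L, picked out after its values were seen as the one tested member of the H4 group, was at 1.31, 1.13 and 0.588 CPM in Xenobots, against 0.514, 0.595 and 0.558 CPM in embryos. The pools overlapped, and it did not pass the test (log2 0.81, adjusted p = 0.0963 by limma-voom).

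Copies of a receptor mostly had the same call. Both were called lower in 22 of the 27 pairs with both tested, 1 of the copies in 3 pairs, and neither in 2 pairs. As 85.1% of all tested receptors were called lower, these counts are not evidence that copies moved together. The kept receptors described here and not called lower did not have 2 tested copies: htr7.S, chrm1.S and grin2c.S had 0 counts in all Xenobot pools, and htr3a, htr2b and adra2a were present in the table as an L copy alone.

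The genes that make, package, take up and break down transmitters were described by count beside the receptors. Of 46 tested, 1 was called higher and 27 were called lower, beside 5.75% and 20.5% over all tested genes. The filter favoured the embryo here too: 21 of the 46 passed through embryo libraries alone, and 20 of these 21 were called lower. The one called higher was slc18a1.S, the vesicular monoamine transporter of secretory cells, at 37.5, 42.0 and 45.6 CPM in Xenobots, against 8.16, 8.60 and 12.8 CPM in embryos. Among the 10 tested markers of small secretory cells, slc18a1.S was also the only one called higher. Of these markers 4 were called lower, and another 3 were lower by the adjusted p alone. tph1.L, the rate-limiting enzyme of serotonin synthesis outside the brain, was at 2.06, 2.07 and 2.18 CPM in Xenobots, against 1.68, 1.51 and 1.44 CPM in embryos. Its pools did not overlap, but the log2 fold change of 0.44 ± 0.25 (SE) did not pass the test (adjusted p = 0.144 by limma-voom).

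Of the 46 tested, 20 were above 0.6 CPM in all Xenobot pools, where 79.1% of all tested genes were. The list's 53 genes summed to 850, 796 and 718 CPM in Xenobots, against 738, 825 and 750 CPM in embryos. chat.L, which makes acetylcholine, had 1 count in Xenobots, against 2.85, 3.95 and 2.88 CPM in embryos, and th.L, which commits tyrosine to dopamine, had 1 count, against 1.50, 1.79 and 1.67 CPM. chat.S was also called lower, and th.S was lower with a fold change under the threshold (log2 -1.81, adjusted p = 0.00306 by limma-voom). The vesicular glutamate transporter slc17a7.L, the glial glutamate transporter slc1a2.L and the glycine transporter slc6a5.L had the largest fitted decreases. slc6a5.L had 0 counts in Xenobots and 5.47, 8.98 and 4.84 CPM in embryos, at least 100.4-fold lower. Acetylcholinesterase, which breaks acetylcholine down, was detected in both groups. ache.L was at 26.2, 25.6 and 29.2 CPM in Xenobots, against 42.5, 40.9 and 42.7 CPM in embryos (log2 -0.64, adjusted p = 0.000258 by limma-voom), and ache.S was called lower (log2 -2.75).

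**Figure D5:**
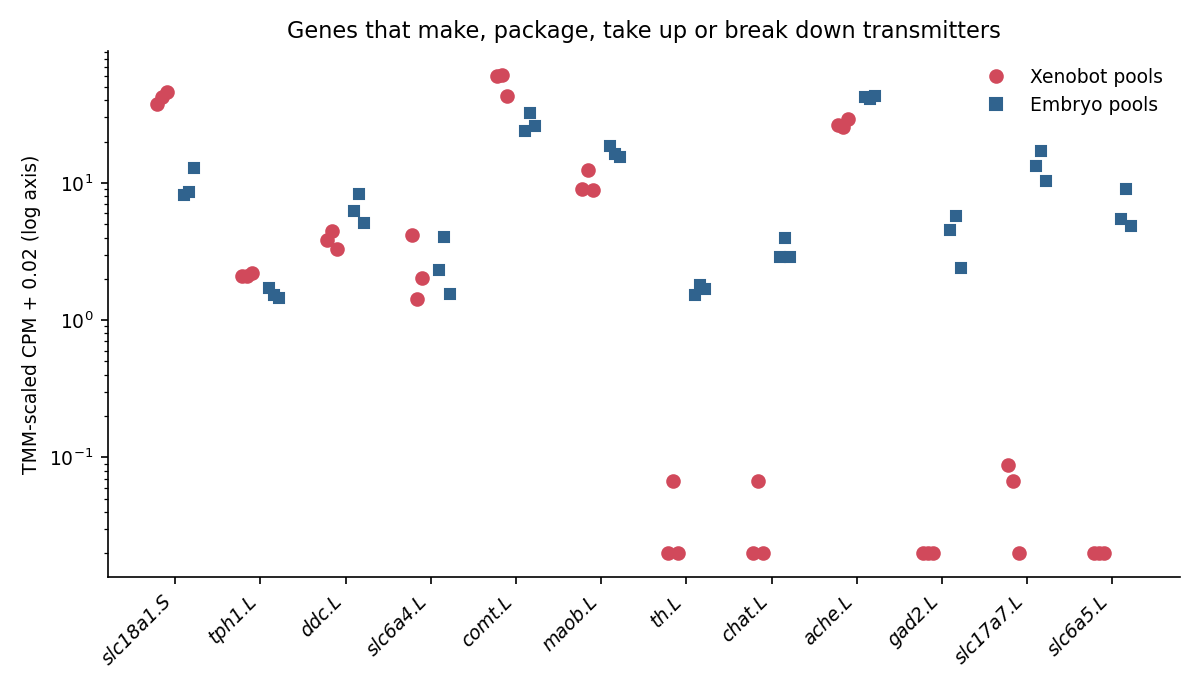
CPM plus 0.02 on a log axis of 12 genes that make, package, take up or break down transmitters, with 1 point per pool. The genes ddc.L, slc6a4.L, comt.L, maob.L and gad2.L were added for context after their values were seen. slc18a1.S lies higher in the Xenobot pools, at 37.5 to 45.6 CPM, than in the embryo pools, at 8.16 to 12.8 CPM, and the genes of acetylcholine, GABA, glutamate and glycine neurons on the right, except ache.L, lie near 0 in Xenobots.

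Of 49 tested genes for the assembly and anchoring of receptors, 0 were called higher (7 were higher at an adjusted p under 0.05 by limma-voom) and 32 were called lower. The shares over all tested genes were 5.75% called higher and 20.5% called lower. Of all 26752 tested genes, 6390 were higher at an adjusted p under 0.05 but inside the fold threshold. Of the 49, 24 passed the filter through embryo libraries alone, and all 24 were called lower. Those with the largest fitted decreases were neto2.L and neto1.S, auxiliary subunits of kainate receptors, and cacng7.S, one of AMPA receptors. rapsn, which clusters the muscle nicotinic receptor, differed between copies: rapsn.S fell to 0.894, 0.846 and 0.756 CPM in Xenobots, against 8.32, 9.47 and 11.3 CPM in embryos, whereas rapsn.L did not pass the test (log2 -0.88, adjusted p = 0.101).

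Receptors of purines, cannabinoids, opioids and melatonin outside the naming rule had 1 of 20 tested genes called higher and 8 called lower. The shares over all tested genes were 5.75% and 20.5%, so the 1 called higher is near the background rate. Of the 8 called lower, 5 passed the filter through embryo libraries alone. p2ry6.S, a receptor of uridine nucleotides, was at 19.2, 12.2 and 15.0 CPM in Xenobots, against 1.10, 1.83 and 1.95 CPM in embryos (log2 3.24 ± 0.32 SE, adjusted p = 1.3e-05 by limma-voom). cnr1.L, cnr1.S and oprl1.S had the largest fitted decreases, and cnr1.L and oprl1.S had 0 counts in Xenobots. Of 61 tested G proteins and regulators, 2 were called higher (3.28%) and 20 were called lower (32.8%), beside 5.75% and 20.5% over all tested genes. Of the 61, 13 passed the filter through embryo libraries alone, and 11 of these 13 were called lower. Another 16 were higher and 11 lower at an adjusted p under 0.05 but inside the fold threshold. Of all 26752 tested genes, 6390 and 4206 were. The 16 and the 11 are near this background. The list's 66 genes summed to 1676, 1579 and 1679 CPM in Xenobots, against 1194, 1199.9 and 1129 CPM in embryos. gna15.L, a Gq-family subunit, was at 11.6, 14.0 and 13.8 CPM in Xenobots, against 3.27, 2.70 and 2.93 CPM in embryos. rgs2.L, which switches Gq signals off, was at 79.9, 69.3 and 89.6 CPM in Xenobots, against 16.5, 12.5 and 14.5 CPM in embryos. adcy8.S, plcb1.S and rgs4.S, an adenylyl cyclase, a phospholipase C and a regulator of G proteins, had the largest fitted decreases.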

How the data were processed

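RNA from 3 Xenobot and 3 embryo pools was sequenced by the authors as rRNA-depleted, stranded total RNA, single-end. The authors trimmed reads with fastp, aligned them with STAR to the *Xenopus laevis* assembly 10.1 and estimated counts with RSEM. The deposited values are these expected (estimated) counts per gene. A second deposited table holds log2 CPM of 28009 genes from which the authors removed surrogate variables, and it was used for alternatives only. No column was left unused (0).

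Groups came from the sample titles. Genes with CPM above 0.6 in at least 3 libraries were kept (26752). Differences were fitted in limma (version 3.58.1; R 4.3.3) after voom, on TMM-scaled counts from edgeR 4.0.16, two-sided, with no term other than group and Benjamini-Hochberg adjustment over all tested genes. edgeR's quasi-likelihood test and DESeq2 1.42.0 were run on rounded counts. The p-values measure the spread between these pools, which the labels do not tie to separate parents or batches. Library totals were 13597538 to 22225123 counts, where 3 counts equal 0.140 to 0.252 CPM. Floors and intervals cover counting error only, and reads carried no molecular identifiers. In simulated counts of 26752 genes, 199 of 200 genes changed by a log2 fold of 3 were recovered, with 0 false calls. The changed genes were drawn from those of higher mean count, with the same fixed dispersion for all genes. Recovery and false calls at the few counts of many receptors were therefore not tested.

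The receptors and gene lists were chosen with earlier results of these data known. The text names receptors called higher, those higher at an adjusted p under 0.05, those kept, the 3 called lower in each class with the highest embryo mean, and their homeologs, apart from a few that are not reported here. It also names up to 3 members of each transmitter, anchoring, receptor and G protein list in each direction, and tph1, th, chat, gad1, hdc, ache and rapsn where tested. Gene positions came from RefSeq, in which all 164 receptor genes were found.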

Additional observations from a re-analysis of the deposited data

How the results depend on the processing

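The 94 tested receptors included 1 called higher and 80 called lower. Receptors called higher numbered 2 with no filter on low counts, which added gabrd.L, and 2 with the authors' adjusted log2 CPM, which added htr7.L; leaving out 1 pool gave 1 to 2. With a mean CPM above 1, 55 of 64 receptors were called lower (85.9%, where 18.3% of all genes were). With no filter 102 of 154 were (66.2%, where 18.9% of all genes were), beside 80 of 94 (85.1%) in the main test. Leaving out 1 pool gave 76 to 81 of the 94. Kept receptors numbered 16 at a threshold of 0.3 CPM, 7 at 1 CPM, and 9 to 11 with 1 Xenobot pool left out. Of 916 values of 58 named receptors under alternatives, 884 kept their direction and call, 18 lost the call, 8 gained it, 5 passed the adjusted p alone where the main test did not, and 1 changed sign. The change of sign was that of htr2b.L with the authors' adjusted log2 CPM (0.24, adjusted p = 0.303 by limma). gabrr2.S accounted for 9 of the lost calls, htr7.L for 3 of the 8 gained and grin2c.L for 4 of the 5 that passed, and the cause was not tested. With total-count scaling, the median over tested genes was -0.21 in place of -0.07, and 1 receptor was called higher and 82 lower.

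Deviations from the group mean correlated at 0.0568, 0.0531 and 0.0105 between same-numbered pools, and at -0.0712 to 0.0214 between differently numbered pools. All these values are small, and they do not settle whether the numbers pair the pools. A fit with a replicate block gave 1 receptor called higher and 79 lower, and grin2c.L passed the adjusted p in it (log2 0.65, adjusted p = 0.026 by limma-voom). The genes of the deposited adjusted table as an alternative list, and the count without the 2 genes of a receptor-binding protein, were chosen after seeing the data and gave 80 and 79 called lower. Depth limits the receptors at 3 counts or fewer in Xenobots, whose folds are bounds or wide ratios.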
